A study of Mus musculus with 6 samples.

Results

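The fibroblast growth factor (FGF) genes described here are 38 mouse genes. They are 22 Fgf genes grouped here as ligands, 5 receptor genes, 8 feedback inhibitors of the receptor pathway and 3 ETS transcription factors that the pathway induces. All 38 were picked out of the array by gene symbol, so the 22 are not all secreted ligands. Fgf13, for example, is a homologue that stays inside the cell. Of the 38, 37 had a probe set assigned to them alone, out of 18193 such genes on the array, and Etv1 was not measured because its 3 probe sets are shared with Gm5454. The 37 genes have 84 probe sets, and the values of a gene are those of its brightest one, judged by the mean log2 value of the 6 arrays together.

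Most FGFs are secreted proteins that bind receptor tyrosine kinases together with heparan sulphate chains, and the receptors signal through Ras and the kinase ERK. Cells that receive the signal raise their own brakes, among them the Sprouty (Spry) and Spred proteins, which act on the Ras-ERK cascade, and the dual-specificity phosphatases Dusp4, Dusp5 and Dusp6, which inactivate ERK, while Etv1, Etv4 and Etv5 carry part of the transcriptional response. In the mammary gland, Fgf10 and Fgfr2 are needed for the gland to form and branch, and Fgf3 was found as an insertion site of mouse mammary tumor virus (MMTV), as Wnt1 was.

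Wnt1-YL is a cell line grown from an invasive mammary carcinoma of one FVB/n mouse that carried the MMTV-Wnt1 transgene, in which Wnt1 is driven by the viral promoter. The cells were transduced with lentiviral pLKO vectors that carry an shRNA against Sca-1 (shSca-1) or against luciferase (shLuc), selected with puromycin, and grown in medium with bovine serum, insulin and epidermal growth factor, which itself signals through Ras and ERK. RNA of 3 shSca-1 samples and 3 shLuc samples was measured on 1 array each. Values are dChip model intensities on a linear scale, compared on the log2 scale. The labels call the samples biological replicates but do not say that they came from separate transductions or cultures, so the p-values measure the spread between these samples.

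The targeted gene was lower on every shSca-1 array. Ly6a, which encodes Sca-1, had intensities of 285, 314 and 306 on shSca-1 replicates 1, 2 and 3, against 7646, 7362 and 2843 on shLuc replicates 1, 2 and 3 (log2 fold change -4.17, limma adjusted p = 0.051, and -4.64 with adjusted p = 5.2e-07 without shLuc replicate 3). shLuc replicate 3 stood apart from the other arrays. The summed intensity of 9 luminal markers (Krt7, Krt8, Krt18, Krt19, Cdh1, Epcam, Elf5, Gata3 and Foxa1) was 376 to 399.7 on the shSca-1 arrays, 330.1 to 404 on shLuc replicates 1 and 2, and 17169 on shLuc replicate 3. That of 5 basal markers (Krt5, Krt14, Trp63, Acta2 and Cdh3) was 28630.1 to 31265 on the shSca-1 arrays, 32231 to 32246 on shLuc replicates 1 and 2, and 16863 on shLuc replicate 3. The summed intensity of 7 fibroblast markers was 394 to 419 on the shSca-1 arrays, 161 to 187 on shLuc replicates 1 and 2 and 348 on replicate 3. Within it, Pdgfrb had 157, 169.6 and 3.26 on shSca-1 replicates 1, 2 and 3, and Pdgfra 96.2, 108 and 292. That of 5 leukocyte markers was 485 to 653 on the shSca-1 arrays, 684 to 726 on shLuc replicates 1 and 2 and 1108 on replicate 3. Its members differed in direction. On shLuc replicates 1, 2 and 3, Cd14 had 144, 123 and 809.9, and Cd68 had 311, 298 and 32.9. Csf1r (116, 121 and 143) and Ptprc (8.40, 3.98 and 11.6) were also highest on replicate 3, and Adgre1 (147, 139 and 111) was lowest there. Endothelial markers summed to 101 to 121 on the shSca-1 arrays, 113 to 119 on shLuc replicates 1 and 2 and 96.0 on replicate 3, and adipocyte markers to 31.5 to 41.2 on the shSca-1 arrays, 15.3 to 29.3 on shLuc replicates 1 and 2 and 25.4 on replicate 3. The part of such cells in the differences below was not tested, and the main results are therefore given with and without shLuc replicate 3. In bulk RNA, fewer cells of a type and less RNA per cell cannot be told apart.

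The feedback inhibitor Spry2 was lower in shSca-1 cells and passed the thresholds of the study. Spred1 was lower on every shSca-1 array, but its brightest probe set did not pass them. For both genes the log2 fold change moved little with the choice of shLuc samples. Spry2, an inhibitor of signaling downstream of receptor tyrosine kinases, had intensities of 523, 441 and 507 on the shSca-1 arrays against 829.6, 739 and 785 on the shLuc arrays (replicates 1, 2 and 3 in this and all later lists). Every shSca-1 array lay below every shLuc array, and shLuc replicate 3 lay between the other shLuc arrays. The means were 490.4 ± 43.7 in shSca-1 cells and 785 ± 45.4 in shLuc cells (SD, n = 3 each), and the log2 fold change was -0.68 (SE 0.11, limma adjusted p = 0.15). Spry2 therefore passed the thresholds that the study set, p under 0.01 before adjustment with more than 1.5-fold change, but not an adjusted p under 0.05. The log2 fold change of Spry2 was again -0.68 without shLuc replicate 3, with a limma adjusted p of 0.021. A dimmer probe set of Spry2 had intensities of 26.1, 23.8 and 27.7 on the shSca-1 arrays against 23.2, 13.0 and 18.0 on the shLuc arrays, below the array medians of 37.3 to 40.6 on every array and in the other direction (log2 fold change 0.55, limma adjusted p = 0.65).

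**Figure D1:**
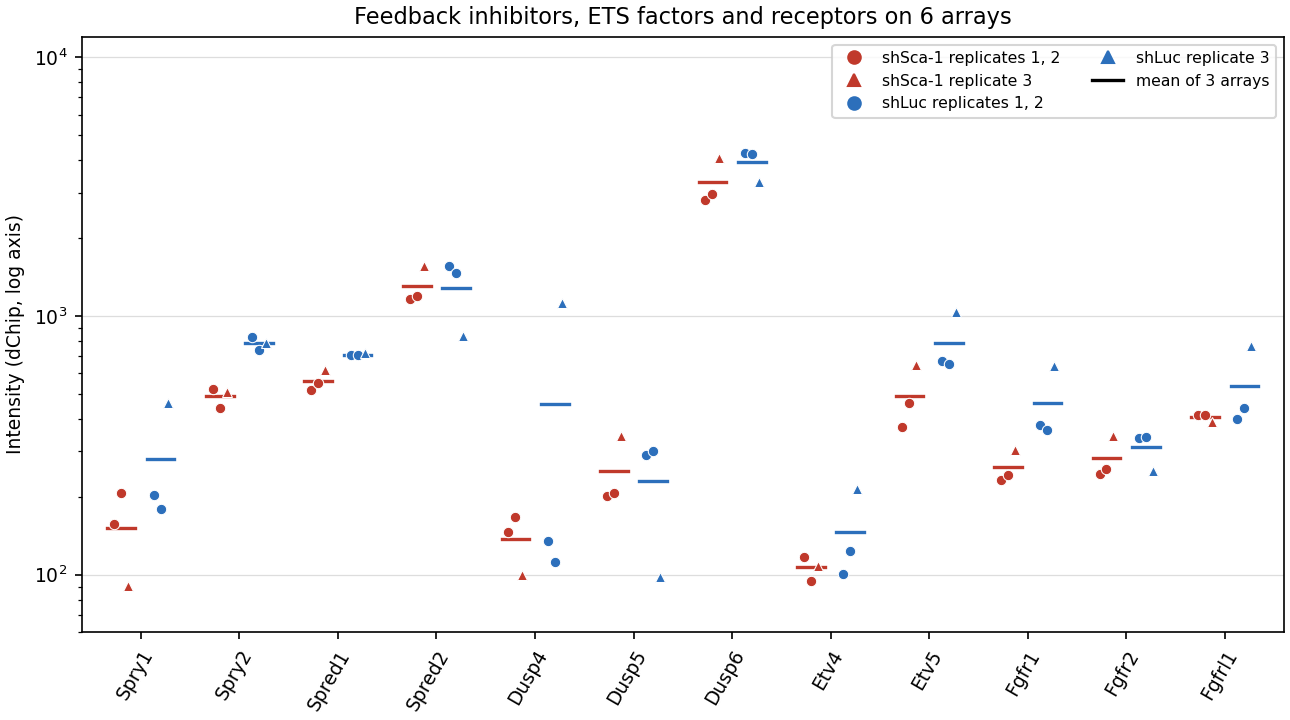
Intensity (dChip model value, log axis) of 12 feedback inhibitors, ETS factors and receptors on the 3 shSca-1 arrays (red) and the 3 shLuc arrays (blue), with replicate 3 of each group as a triangle and the group mean as a bar. Spry2, Spred1, Fgfr1 and Etv5 had no shSca-1 array above any shLuc array, while the shLuc triangles of Dusp4 (1126) and Dusp5 (97.9) lay far from the shLuc circles.

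Spred1, a membrane-bound inhibitor of Ras signaling that works with neurofibromin, has 8 probe sets on the array. The brightest had intensities of 518, 549 and 617 on the shSca-1 arrays against 704, 705 and 718 on the shLuc arrays. No shSca-1 array reached a shLuc array, and the 3 shLuc arrays were close to each other (SD 7.95, against 50.3 for the shSca-1 arrays). For this probe set the log2 fold change was -0.34 (SE 0.10, limma adjusted p = 0.40), and -0.33 (adjusted p = 0.13) without shLuc replicate 3. On another Spred1 probe set, the shSca-1 arrays had 235, 251 and 237 and the shLuc arrays 388, 387 and 370.2. This probe set passed the study's thresholds, with a log2 fold change of -0.66 (SE 0.11, limma adjusted p = 0.14, and adjusted p = 0.015 without shLuc replicate 3). All 6 Spred1 probe sets with a mean of 64 or more in a group were lower in shSca-1 cells with no overlap between groups. Their log2 fold changes ran from -0.71 to -0.34, all 6 had an unadjusted limma p under 0.05, and 2 passed the study's thresholds. The 2 dim Spred1 probe sets overlapped between groups, with log2 fold changes of 0.05 and -0.31. Probe sets of one gene are read from the same RNA and are not replicates of each other. Spry2 and Spred1 are also in the list of changed genes that the study selected on these samples, so their direction here is not independent of that list.

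**Figure D2:**
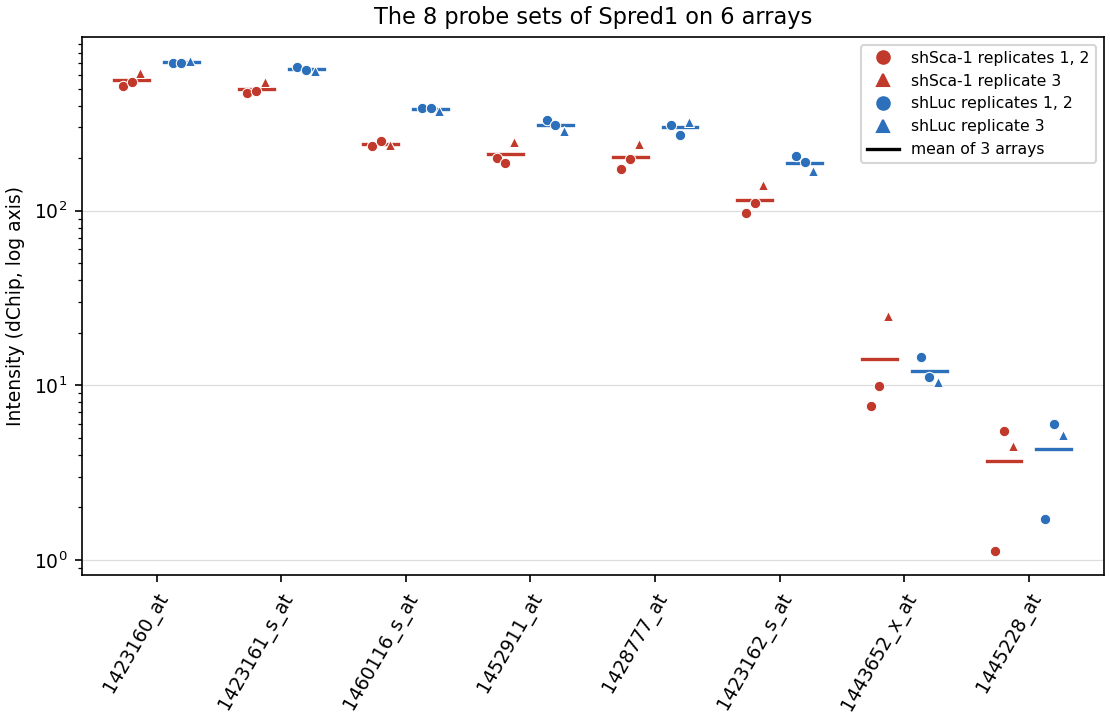
Intensity (dChip model value, log axis) of the 8 probe sets of Spred1 on 3 shSca-1 arrays (red) and 3 shLuc arrays (blue), with replicate 3 as a triangle and bars at the group means. On the 6 brighter probe sets all shSca-1 arrays lay below all shLuc arrays, and on the 2 dim ones the groups overlapped.

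Since Spry2 and Spred1 were lower together and ETS factors respond to the same pathway, the bases just before their start sites were searched for ETS letters. The sequences are those of RefSeq on mouse build GRCm38.p6, 250 bases that end at the base before the start, written 5′ to 3′ in the direction of the gene. The Spry2 stretch is chr14:105896820-105897069 on the minus strand and the Spred1 stretch is chr2:117120821-117121070 on the plus strand. Capitals mark a match to the ETS letters CCGGAA, to CGGAAG, which overlaps it, to GGAAGT, which overlaps that in turn, or to the AP-1 letters TGANTCA, on either strand.
Spry2: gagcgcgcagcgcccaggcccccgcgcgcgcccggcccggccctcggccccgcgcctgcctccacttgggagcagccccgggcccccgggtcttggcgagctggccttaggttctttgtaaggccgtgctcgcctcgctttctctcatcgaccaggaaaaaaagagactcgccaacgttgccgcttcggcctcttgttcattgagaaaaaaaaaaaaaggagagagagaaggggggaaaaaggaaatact
Spred1: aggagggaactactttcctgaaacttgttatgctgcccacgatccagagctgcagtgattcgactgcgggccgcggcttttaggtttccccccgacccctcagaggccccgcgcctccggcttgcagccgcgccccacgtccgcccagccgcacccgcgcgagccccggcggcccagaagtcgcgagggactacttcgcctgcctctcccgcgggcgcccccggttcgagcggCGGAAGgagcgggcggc
The Spred1 stretch held 1 match, CGGAAG, whose first base is at -17 from the start, and the Spry2 stretch held none of the 4 letter groups. Over all 32851 promoters of that length, CCGGAA was held by 12.0%, CGGAAG by 13.6%, GGAAGT by 19.7% and TGANTCA by 6.75%. Of 35 promoters found for 27 of the 37 genes, 4 held CCGGAA, 7 CGGAAG, 5 GGAAGT and 2 TGANTCA. A match of letters is not a measured binding site.

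None of the feedback inhibitors other than Spry2 passed the thresholds on its brightest probe set. Dusp6, a cytoplasmic phosphatase of ERK, had intensities of 2811, 2965 and 4094 on the shSca-1 arrays against 4259, 4235 and 3309 on the shLuc arrays. Replicates 1 and 2 of the groups were apart, and replicate 3 lay in the other order. The log2 fold change of Dusp6 was -0.27 (SE 0.17, limma adjusted p = 0.69), and -0.39 without shLuc replicate 3 (limma adjusted p = 0.24). Spred2, a relative of Spred1, had 1159.7, 1193 and 1558 on the shSca-1 arrays against 1561, 1465 and 836 on the shLuc arrays. shLuc replicate 3 was the lowest of all arrays, and the log2 fold change of Spred2 was 0.06 (SE 0.25, limma adjusted p = 0.96) with it and -0.23 (adjusted p = 0.45) without it. A second Spred2 probe set had 370.3, 363 and 377 on the shSca-1 arrays against 517, 503 and 119 on the shLuc arrays, so that its log2 fold change was 0.24 (limma adjusted p = 0.92) over 6 arrays. This probe set was lower in shSca-1 cells when shLuc replicate 3 was left out (limma adjusted p = 0.035).

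Among the feedback inhibitors, Spry1, Dusp4 and Dusp5 differed most between shLuc replicate 3 and its group. Spry1, another Sprouty inhibitor, had 157, 207 and 90.8 on the shSca-1 arrays against 203, 179 and 461 on the shLuc arrays (log2 fold change -0.84, SE 0.43, limma adjusted p = 0.62, and -0.41 without shLuc replicate 3). Dusp4, a nuclear phosphatase of ERK, had 146, 167 and 99.6 on the shSca-1 arrays against 135, 112 and 1126 on the shLuc arrays. Its log2 fold change was -0.94 (SE 0.83, limma adjusted p = 0.77), and 0.13 without the array at 1126. Dusp5, also a nuclear phosphatase of ERK, had 201, 207 and 345 on the shSca-1 arrays against 291, 301 and 97.9 on the shLuc arrays, and its log2 fold change was 0.25 (SE 0.46, limma adjusted p = 0.90), or -0.29 without shLuc replicate 3. The groups overlapped for all 3 genes. Spry4 lay between 38.7 and 54.0 on all 6 arrays, near the array medians (log2 fold change 0.13, limma adjusted p = 0.88).

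Etv5 was lower in shSca-1 cells without passing the thresholds. Etv5, an ETS factor of the PEA3 group, had intensities of 371, 459 and 645 on the shSca-1 arrays against 669.8, 650.2 and 1032 on the shLuc arrays. The groups did not overlap, but shSca-1 replicate 3, at 645, came close to the lowest shLuc array. The means were 491 ± 140.0 in shSca-1 cells and 784 ± 215 in shLuc cells (SD, n = 3 each), and the log2 fold change was -0.68 (SE 0.25, limma adjusted p = 0.49). The 3 probe sets of Etv5 gave log2 fold changes of -0.73 to -0.66, and the groups overlapped on the other 2. The log2 fold change without shLuc replicate 3 was -0.46 (limma adjusted p = 0.32). Etv4, of the same group, had 117, 94.9 and 108 on the shSca-1 arrays against 101, 123 and 215 on the shLuc arrays. The groups overlapped, and its log2 fold change was -0.39 (SE 0.29, limma adjusted p = 0.73), or -0.07 without shLuc replicate 3.

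Among the receptors, Fgfr1 stood lower on every shSca-1 array. It had intensities of 233, 242 and 304 on the shSca-1 arrays against 380.5, 361 and 640.2 on the shLuc arrays, with no overlap. The means were 259.8 ± 38.4 in shSca-1 cells and 461 ± 156 in shLuc cells (SD, n = 3 each). The log2 fold change was -0.79 (SE 0.24, limma adjusted p = 0.40), and without shLuc replicate 3, the highest array, it was -0.52 (SE 0.13, limma adjusted p = 0.096). Fgfr1 missed the p threshold of the study in the first case and the fold threshold in the second. On a second Fgfr1 probe set the groups did not overlap either (125, 201 and 186 on the shSca-1 arrays, 208, 209 and 401 on the shLuc arrays), while on the third they did (60.9, 76.4 and 76.5 on the shSca-1 arrays, 65.6, 54.4 and 94.4 on the shLuc arrays). Fgfr2, the receptor of Fgf10 in the gland, had 245, 255 and 345 on the shSca-1 arrays against 338, 342 and 252 on the shLuc arrays. Its groups overlapped because replicate 3 lay in the other order (log2 fold change -0.15, SE 0.19, limma adjusted p = 0.85, and -0.29 without shLuc replicate 3). A second Fgfr2 probe set had 156, 185 and 241 on the shSca-1 arrays against 325, 273 and 128 on the shLuc arrays. It too overlapped (log2 fold change -0.24, limma adjusted p = 0.87), and without shLuc replicate 3 it passed the study's thresholds lower (log2 fold change -0.64, limma adjusted p = 0.13).

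Fgfrl1, a receptor that lacks the kinase domain, had 413, 416 and 389 on the shSca-1 arrays against 399, 441 and 765 on the shLuc arrays. Apart from shLuc replicate 3 all arrays lay between 389 and 441, and the log2 fold change of -0.34 (SE 0.24, limma adjusted p = 0.72) became -0.05 (SE 0.09) without it. Fgfr3 was dim, with 18.0, 17.0 and 22.1 on the shSca-1 arrays against 24.2, 20.2 and 67.6 on the shLuc arrays (log2 fold change -0.76, limma adjusted p = 0.69, and -0.22 without shLuc replicate 3). A dimmer Fgfr3 probe set had 9.55, 5.23 and 5.47 on the shSca-1 arrays against 29.2, 26.3 and 3.95 on the shLuc arrays. Its groups overlapped (log2 fold change -1.16, limma adjusted p = 0.71). Without shLuc replicate 3 that probe set passed the study's thresholds lower (log2 fold change -2.09, limma adjusted p = 0.070). Fgfr4 lay between 28.5 and 46.1 on all 6 arrays (log2 fold change 0.05).

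Most ligand genes gave little signal. Of the 22, 18 were under an intensity of 64 on all 6 arrays, with values of 3.16 to 62.6 against array medians of 37.3 to 40.6. The 4 others were Fgf1, Fgf3, Fgf4 and Fgf15. Fgf4, a ligand first known from transformation assays, had 153, 119 and 164 on the shSca-1 arrays against 167, 179.8 and 228 on the shLuc arrays. The groups did not overlap, and the log2 fold change was -0.40 (SE 0.19, limma adjusted p = 0.59) or -0.27 without shLuc replicate 3 (limma adjusted p = 0.50). Fgf1, which binds all FGF receptors, had 68.4, 83.6 and 72.6 on the shSca-1 arrays against 73.9, 56.7 and 80.3 on the shLuc arrays (log2 fold change 0.10, SE 0.20). Fgf3 had 88.0, 56.6 and 68.4 on the shSca-1 arrays against 62.1, 78.4 and 65.4 on the shLuc arrays (log2 fold change 0.03, SE 0.23). For Fgf1 and Fgf3 the groups overlapped on the brightest probe set. A second probe set of each went in the other direction, with overlap (log2 fold change -0.27 for Fgf1 and -0.28 for Fgf3). A dimmer Fgf3 probe set was higher in shSca-1 cells without overlap (0.50, limma adjusted p = 0.64).

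Fgf15 was the 1 ligand past the study's thresholds in limma, while by the methods' t-test Fgf15 missed the p threshold and Fgf20 passed both. This gene, the mouse counterpart of human FGF19 and a gut hormone that acts on the liver, had 75.9, 58.8 and 79.4 on the shSca-1 arrays against 45.0, 23.3 and 29.7 on the shLuc arrays. The groups did not overlap, and the values lay close to the middle of the arrays' intensities. The means were 71.4 ± 11.0 in shSca-1 cells and 32.7 ± 11.2 in shLuc cells (SD, n = 3 each), and the log2 fold change was 1.17 (SE 0.30, limma adjusted p = 0.31), or 1.13 without shLuc replicate 3 (limma adjusted p = 0.12). Fgf15 missed the p threshold when shSca-1 replicate 1 was left out (log2 fold change 1.12), and likewise for shSca-1 replicate 3 (1.09) and shLuc replicate 2 (0.95). Its log2 fold change was 0.19 when 64 was taken as the floor of all intensities.

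Fgf20, a ligand known from kidney and inner ear development, had 10.1, 12.6 and 15.9 on the shSca-1 arrays against 5.72, 5.69 and 6.96 on the shLuc arrays. The groups did not overlap, and all values were below the lowest array median. The log2 fold change was 1.05 (SE 0.38, limma adjusted p = 0.48), 1.15 without shLuc replicate 3 and 0.00 with a floor of 16 on all intensities. Fgf20 too is in the study's own list of changed genes. Fgf17, close in sequence to Fgf8, had 21.9, 16.9 and 24.8 on the shSca-1 arrays against 34.6, 33.0 and 25.8 on the shLuc arrays. It was the other dim ligand without overlap on its brightest probe set (log2 fold change -0.56, limma adjusted p = 0.61). A dimmer Fgf17 probe set had 9.49, 8.79 and 8.45 on the shSca-1 arrays against 1.68, 2.52 and 7.76 on the shLuc arrays. That probe set went in the other direction, also without overlap (log2 fold change 1.47, limma adjusted p = 0.55). Without shLuc replicate 3 it passed the study's thresholds higher (log2 fold change 2.11, limma adjusted p = 0.12). Fgf10 and Fgf7, the stromal ligands of the Fgfr2 isoform of epithelial cells, lay at 4.77 to 19.6 and at 8.43 to 24.5 over the 6 arrays. A second probe set of Fgf13, an FGF homologue that stays inside the cell, was at 203 on shLuc replicate 3 and at 3.66, 3.98 and 7.34 on the shSca-1 arrays and 3.87 and 4.85 on the other shLuc arrays. For the remaining dim ligands the groups overlapped on the brightest probe set. These were Fgf2, Fgf5, Fgf6, Fgf8, Fgf9, Fgf11, Fgf12, Fgf14, Fgf16, Fgf18, Fgf21, Fgf22 and Fgf23.

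**Figure D3:**
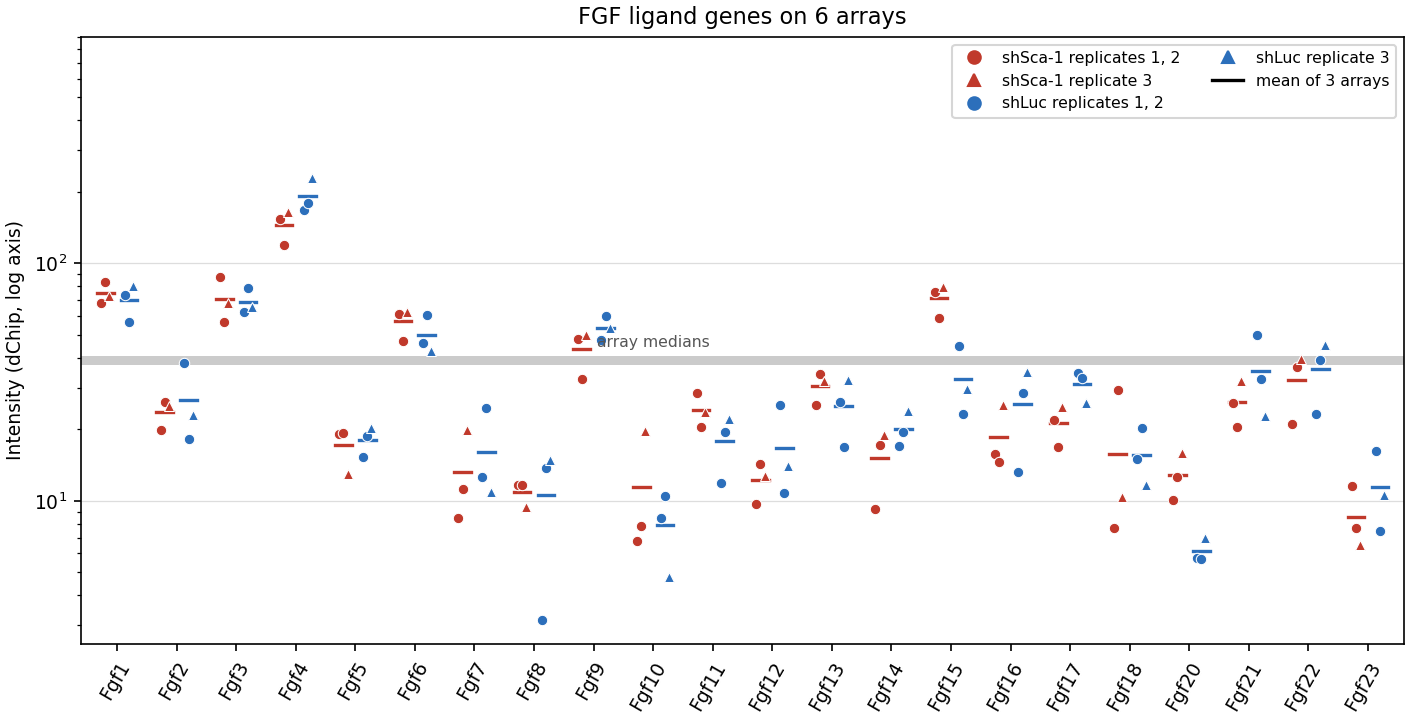
Intensity (dChip model value, log axis) of the 22 ligand genes on 3 shSca-1 arrays (red) and 3 shLuc arrays (blue), with replicate 3 as a triangle, bars at the group means and a grey band over the range of the array medians (37.3 to 40.6). Fgf15 had all shSca-1 points above all shLuc points, and 18 ligands stayed under 64 on every array.

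Over the 37 genes, 1 was past the study's thresholds in the lower direction (Spry2) and 1 in the higher direction (Fgf15). Of all 18193 genes, 1.52% were past them lower and 0.528% higher, and 1 gene of 37 in each direction is too few to tell from these shares. Of the 15 FGF genes with a mean log2 value of 6 or more, 1 was past the thresholds lower, beside 2.35% of the 9939 genes at that level. None of the 37 had an adjusted p under 0.05 on 6 arrays (0% of all genes, smallest adjusted p 0.15), and 6 had an unadjusted limma p under 0.05 (Fgf15, Fgf20, Fgfr1, Spry2, Spred1 and Etv5), beside 10.6% of all genes. In 6 genes all shSca-1 arrays were below all shLuc arrays (Fgf4, Fgf17, Fgfr1, Spry2, Spred1 and Etv5), beside 11.5% of all genes, and in 2 (Fgf15 and Fgf20) they were above, beside 7.18%. With 3 arrays a side, 0.1 is the smallest p of an exact two-sided permutation test. Any gene without overlap between the groups reaches it, so it adds nothing for these 8 genes.

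Log2 fold changes were below 0 for 24 of the 37 genes and above 0 for 13, with a median of -0.27, beside -0.04 for all genes. By role, the median was -0.12 over 22 ligands, -0.34 over 5 receptors, -0.30 over 8 feedback inhibitors and -0.53 over the 2 ETS factors. Among the 15 brighter FGF genes, 11 were below 0 with a median of -0.34, beside -0.04 over all genes at that level, and without shLuc replicate 3 it was 12 of 15 with a median of -0.29, beside -0.06. shLuc replicate 3 was the highest of the 6 arrays for 14 of the 37 genes and the lowest for 4. The shares of all genes are not given here, so these counts do not set the FGF genes apart. Without shLuc replicate 3, 1 FGF gene had an adjusted p under 0.05 (Spry2, lower), beside 2.73% of all genes lower and 1.17% higher. Past the study's thresholds were then again Spry2, beside 2.91% of all genes in the lower direction, and Fgf15, beside 1.08% in the higher direction.

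**Figure D4:**
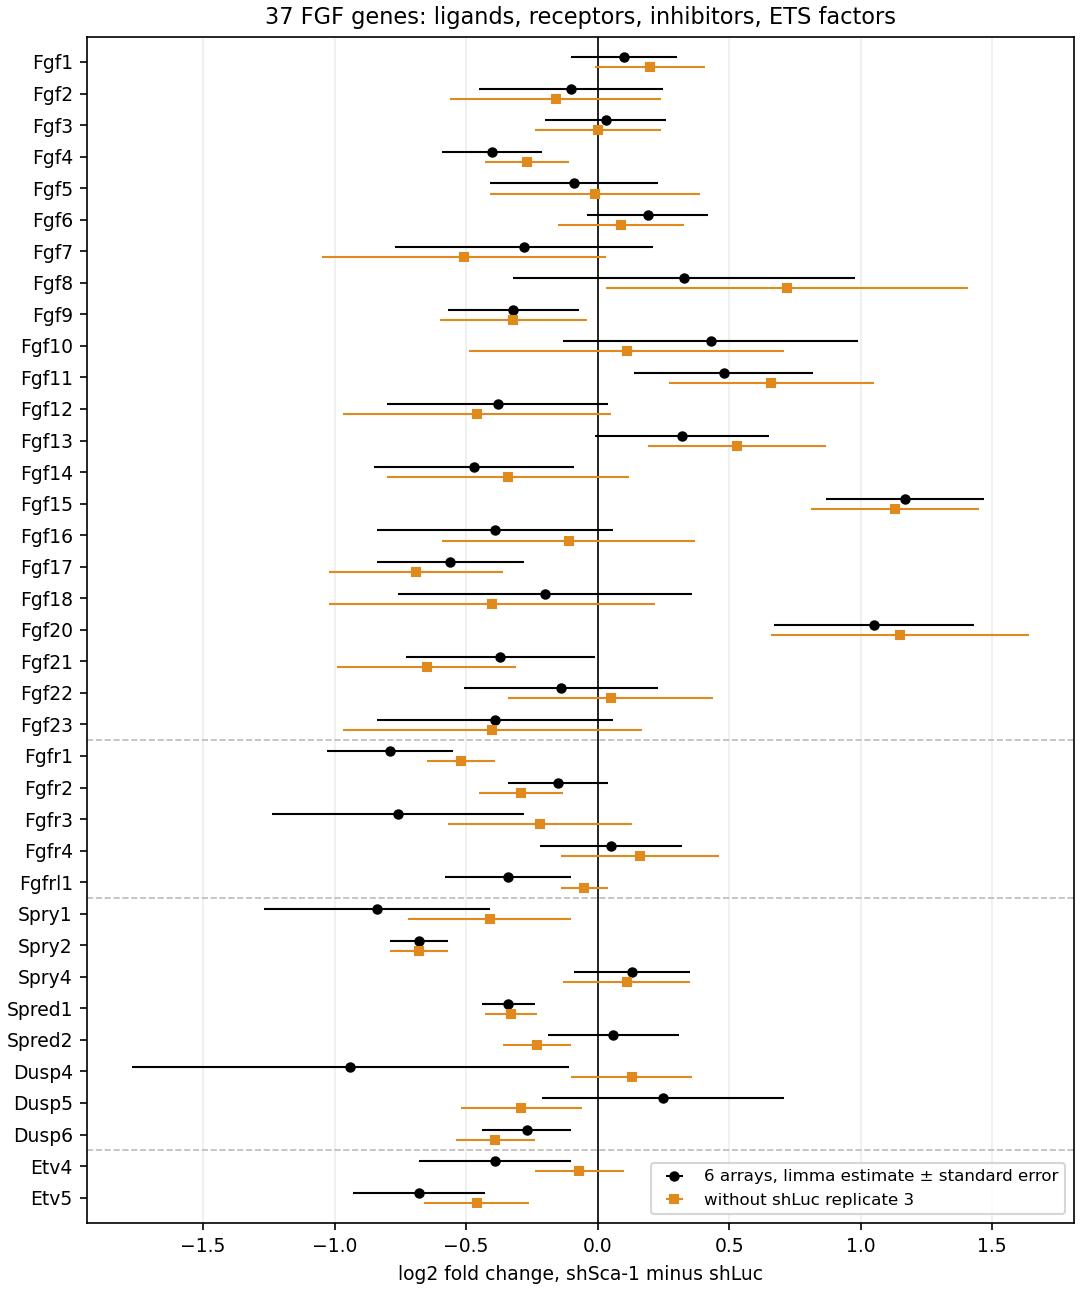
Log2 fold change of shSca-1 minus shLuc with its standard error from limma for the 37 FGF genes on 6 arrays (black circles) and without shLuc replicate 3 (orange squares), with dashed lines between ligands, receptors, feedback inhibitors and ETS factors. Spry2 was at -0.68 in both, while Dusp4 was at -0.94 with that array and at 0.13 without it.

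The third samples of both groups differed from the first 2 in many of these genes. Over the 9939 brighter genes, the median absolute log2 difference was 0.132 between shSca-1 replicates 1 and 2 and 0.088 between shLuc replicates 1 and 2. It was 0.183 and 0.148 between shSca-1 replicate 3 and the other shSca-1 arrays, and 0.334 and 0.336 between shLuc replicate 3 and the other shLuc arrays. Of the 15 FGF genes with a mean log2 value of 6 or more, 7 were 0.4 or more on the log2 scale away from replicates 1 and 2 in shSca-1 replicate 3, beside 13.4% of the brighter genes. Higher there were Dusp5 (0.76), Etv5 (0.65), Dusp6 (0.50), Fgfr2 (0.47) and Spred2 (0.41), and lower were Spry1 (-0.99) and Dusp4 (-0.65). Of the 13 measured ERK-induced genes, 5 were 0.4 or more higher in shSca-1 replicate 3, beside 9.20% of the brighter genes. That much lower were 0, beside 4.19%, and the range was -0.31 to 1.00. Of the same 13 genes, 3 were that much higher in shLuc replicate 3 and 4 that much lower, beside 19.1% and 23.7%. Their range there was -1.91 to 0.51. In shLuc replicate 3, 9 of the 15 FGF genes were that far away, beside 42.8% of the brighter genes. The differences there were 3.19 for Dusp4, 1.27 for Spry1, 0.95 for Etv4, 0.87 for Fgfrl1, 0.79 for Fgfr1 and 0.65 for Etv5, and -1.60 for Dusp5, -0.86 for Spred2 and -0.43 for Fgfr2. Spry2 differed by 0.08 in shSca-1 replicate 3 and 0.00 in shLuc replicate 3, and Spred1 by 0.21 in shSca-1 replicate 3 and 0.03 in shLuc replicate 3.

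**Figure D5:**
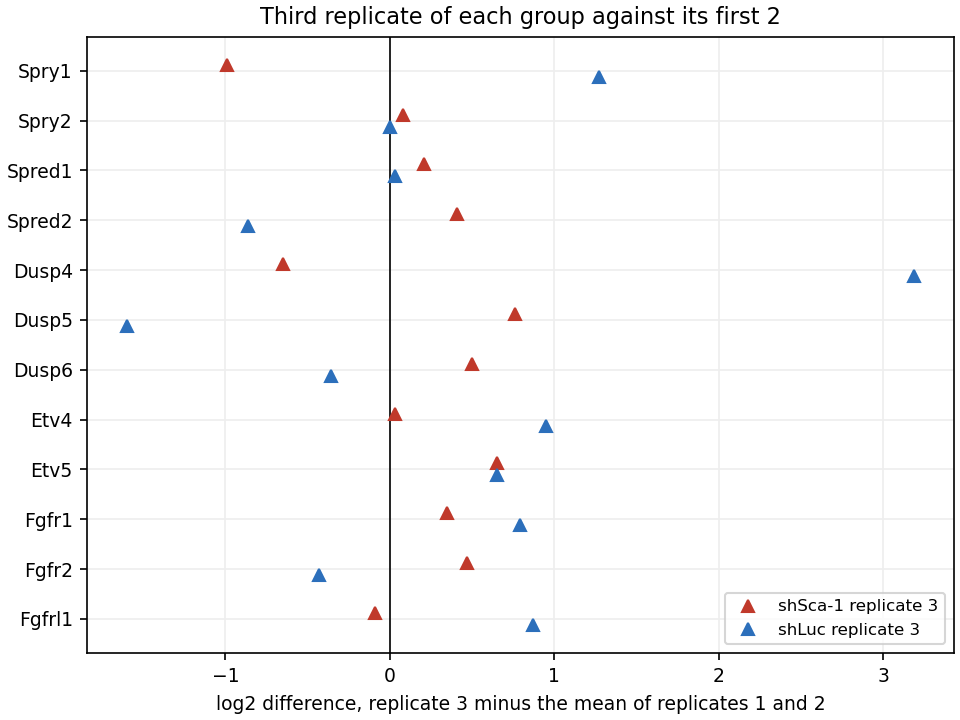
Log2 difference of replicate 3 from the mean of replicates 1 and 2 of its own group, for shSca-1 (red) and shLuc (blue), in 12 feedback inhibitors, ETS factors and receptors. Spry2 and Spred1 lie near 0 in both groups, and Dusp4 is 3.19 higher in shLuc replicate 3 and 0.65 lower in shSca-1 replicate 3.

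Beyond these genes, 79 other genes of the pathway in 5 lists were examined, of which 71 were measured. Of the 71, 2 were past the study's thresholds lower, beside 1.52% of all genes, and 0 higher, beside 0.528%. The median log2 fold change of the 71 was -0.05, beside -0.04 for all genes. Without shLuc replicate 3, 5 were past the thresholds lower and 1 higher, beside 2.91% and 1.08% of all genes. An adjusted p under 0.05 was then found for 6 in the lower and 1 in the higher direction, beside 2.73% and 1.17% of all genes. Both calls on 6 arrays, Sdc4 and Jun, had no overlap between groups.

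Sdc4, a syndecan that carries heparan sulphate chains and binds FGFs at the cell surface, had 319.5, 299.8 and 322 on the shSca-1 arrays against 525, 496 and 833 on the shLuc arrays. Every shSca-1 array was lower, and the log2 fold change was -0.94 (SE 0.20, limma adjusted p = 0.25), or -0.70 without shLuc replicate 3 (adjusted p = 0.012). Sdc4 missed the p threshold when shSca-1 replicate 1 (-0.95) or replicate 2 (-0.91) was left out, with a floor of 64 and by the methods' t-test, and it missed both thresholds with the mean of its probe sets (-0.42). Sdc2, another syndecan, had 635, 653 and 566 on the shSca-1 arrays against 979, 959 and 838 on the shLuc arrays, again with no overlap (log2 fold change -0.58, SE 0.11, limma adjusted p = 0.20), just under the fold threshold. Sdc3, the syndecan best known from neurons, had 466, 529 and 495 on the shSca-1 arrays against 782, 814 and 339 on the shLuc arrays. Without shLuc replicate 3, Sdc2 (log2 fold change -0.65, limma adjusted p = 0.014) and Sdc3 (-0.69, adjusted p = 0.012) were both lower in shSca-1 cells. Glce, the epimerase that converts glucuronic acid in heparan sulphate, had 702, 764 and 957 on the shSca-1 arrays against 1289, 1261 and 584 on the shLuc arrays, and was likewise lower without shLuc replicate 3 (log2 fold change -0.67, limma adjusted p = 0.039). Sdc1, the syndecan of epithelial cells, had 7565, 7080.3 and 7575 on the shSca-1 arrays against 7899, 7602 and 6811 on the shLuc arrays, with overlap and a log2 fold change of 0.00 (SE 0.09). Sdc1 was picked for mention with its values known. Over the 20 of 21 measured heparan sulphate genes the median log2 fold change was -0.19, and 1 was past the thresholds, in the lower direction. Leaving out shLuc replicate 3 gave a median of -0.31, beside -0.04 for all genes, with 4 past the thresholds lower and 1 higher, beside 2.91% and 1.08% of all genes. The higher one was Hs6st2, a sulphotransferase of heparan sulphate. Hs6st2 had 23.4, 25.9 and 19.1 on the shSca-1 arrays against 10.2, 6.42 and 20.4 on the shLuc arrays. All these values were below the lowest array median, and the groups overlapped (log2 fold change 1.04, limma adjusted p = 0.57). Without shLuc replicate 3 its log2 fold change was 1.48 (limma adjusted p = 0.13).

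Jun, a component of AP-1, had 582, 671 and 591 on the shSca-1 arrays against 1034, 950.3 and 1353 on the shLuc arrays. Jun was lower on every shSca-1 array, with a log2 fold change of -0.84 (SE 0.15, limma adjusted p = 0.18), or -0.69 without shLuc replicate 3 (adjusted p = 0.014). Fosl2, another AP-1 component, had 1053, 1085 and 1242 on the shSca-1 arrays against 1549.9, 1564 and 1741 on the shLuc arrays (log2 fold change -0.52, limma adjusted p = 0.22). Egr1, an immediate early transcription factor, had 1899, 2054 and 3708 on the shSca-1 arrays against 4266, 4269.7 and 2127 on the shLuc arrays, so that replicates 1 and 2 were apart and the groups overlapped in replicate 3 (log2 fold change -0.47, SE 0.35, limma adjusted p = 0.73). Without shLuc replicate 3, Fosl2 was lower (log2 fold change -0.47, limma adjusted p = 0.037) and Ccnd1, which encodes cyclin D1, was higher in shSca-1 cells (0.35, adjusted p = 0.027). The 13 of 14 measured ERK-induced genes had a median log2 fold change of 0.07. Without shLuc replicate 3 it was -0.07, and the median of all genes was -0.04 in both cases. With and without that array, 1 was past the thresholds, in the lower direction, beside 1.52% and 2.91% of all genes.

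The 3 other lists held no gene past the thresholds. Of 10 coreceptors and extracellular binders, Fgfbp1, a carrier that releases FGFs from the matrix, had the smallest p, with 2065, 2099 and 2783 on the shSca-1 arrays against 1750.0, 1778 and 751 on the shLuc arrays (log2 fold change 0.79, SE 0.34, limma adjusted p = 0.54). The groups did not overlap, and without shLuc replicate 3 the log2 fold change was 0.38 (adjusted p = 0.19). Flrt1 and Flrt3, membrane proteins that bind FGF receptors, had log2 fold changes of 0.67 (limma adjusted p = 0.61) and 1.03 (limma adjusted p = 0.73), of which that of Flrt3 was 0.09 without shLuc replicate 3. Of 17 of 23 measured adaptor and Ras-ERK relay genes, Nf1, which encodes neurofibromin, had 102, 135 and 148 on the shSca-1 arrays against 181, 169 and 161 on the shLuc arrays (log2 fold change -0.43, SE 0.18, limma adjusted p = 0.53, and -0.47 without shLuc replicate 3). Nras and Sos1, a Ras protein and its exchange factor, were next with log2 fold changes of -0.34 (limma adjusted p = 0.54) and -0.28 (limma adjusted p = 0.54). Of 11 other feedback inhibitors, Dusp9, a phosphatase of ERK, had 213, 231 and 123 on the shSca-1 arrays against 109.7, 121 and 103 on the shLuc arrays. All shSca-1 arrays were higher (log2 fold change 0.71, SE 0.25, limma adjusted p = 0.47, and 0.66 without shLuc replicate 3), shSca-1 replicate 3 by the least. Dusp1 and Cblb, a phosphatase of MAP kinases and a ubiquitin ligase, followed with log2 fold changes of -0.66 (limma adjusted p = 0.58) and 0.41 (limma adjusted p = 0.77).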

How the data were processed

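The authors computed model intensities with dChip (PM-MM model, invariant set normalization), and the deposited values are linear intensities of 45101 probe sets, of which 1.12% of values are exactly 1. Each sample was hybridized separately, and precision is limited by having 3 arrays a group. Control probe sets (64) were removed, and log2 values were taken here after raising values below 1 to 1. The comparison of the groups used limma 3.58.1 (R 4.3.3, eBayes with a trend in the variance, no replicate block), with Benjamini-Hochberg adjustment over 45037 probe sets, and the fold was taken from mean log2 values. The script was tested on simulated data. Names came from the platform annotation (34945 probe sets with 1 symbol, 932 with several, 9160 with none), and all 37 symbols matched RefSeq by Entrez ID. The probe set of Ly6a has no symbol there and was named through a supplementary list of the study. No genome build is given for the probe sets in the sources used here.

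The set of FGF genes, the other lists and the tests were drawn up with earlier results of these data known, although membership itself goes by symbol. Array values are given for genes with a mean of 64 or more in a group, an unadjusted p under 0.05 or a place in the study's list, and in the other lists for genes past the thresholds or else up to 3 with the smallest p. A gene with an adjusted p under 0.05 without shLuc replicate 3 is also named, as are Egr1, Hs6st2, Fgf7, Fgf10, Fgf17, Fgfr3, Fgfr4 and Spry4, with their values known. Alternatives tried were floors at 16 and 64, quantile normalization, centring on array medians, testing only probe sets above the 40 percentile in mean log2, robust variance, no trend, the methods' t-test, averaging the probe sets of a gene, omitting each array in turn and a replicate block.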

Additional observations from a re-analysis of the deposited data

How the results depend on the processing

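The 2 FGF genes past the study's thresholds became 1 with a floor of 16, with a floor of 64 and with the mean of all probe sets (Spry2 -0.06 there), 4 with a replicate block (Fgfr1 and Etv5 added), 3 with robust variance (Fgfr1 added), 3 with no trend in the variance (Fgf20 added), and 1 to 2 when each array was left out. The labels do not say that same-numbered arrays are paired, and the main comparison did not pair them. The deviations of same-numbered arrays from their group means had correlations of -0.0428, -0.02 and -0.029. These cannot show whether the arrays are paired, because shLuc replicate 3 lay far from its group and enters every shLuc deviation. The number of FGF genes at an adjusted p under 0.05, 0 on 6 arrays, was 0 to 1 when each array was left out (1 without shLuc replicate 3). The 2 other pathway genes past the thresholds became 1 with a floor of 64 and 2 to 6 when each array was left out (6 without shLuc replicate 3, and also 6 without shSca-1 replicate 3). With the mean of all probe sets the log2 fold change was -0.15 for Spred2, 0.05 for Sos1 and -0.06 for Cblb, opposite to the brightest probe set. Leaving out each array gave ranges that crossed 0 for Fgf1 (-0.05 to 0.20), Fgf3 (-0.13 to 0.18), Spred2 (-0.23 to 0.22), Dusp4 (-1.54 to 0.13), Dusp5 (-0.29 to 0.53) and Cblb (-0.02 to 0.66). Fgf15 missed the p threshold with floors of 16 and 64 and by the methods' t-test, and Fgf20 passed both thresholds by that t-test. Of 447 values of 28 genes under 16 alternatives, 411 kept their direction and side of the thresholds, and 4 kept the side but were 0.00 (Fgf20 with both floors, Flrt1 with a floor of 64 and Fgf3 without shLuc replicate 3). Over all probe sets, 824 were past the thresholds, 329 with a floor of 64, 327 of 18193 genes with the mean of all probe sets, 507 when shSca-1 replicate 1 was left out, 534 when it was shSca-1 replicate 2 and 1605 without shLuc replicate 3. The number at an adjusted p under 0.05 was 0 on 6 arrays, 19 with centring, 32 with the filter, 24 with a floor of 16, 7 with a floor of 64, 5 with quantile normalization, 56 with robust variance, 4 by the t-test and 1244 without shLuc replicate 3. Apart from the floors, the mean of all probe sets and the arrays left out, the causes of these changes were not tested.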
